A study of Homo sapiens with 2 samples.

Results

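Chemokines are small secreted proteins that steer the movement of leukocytes, and their receptors are G protein-coupled receptors on the cell surface. The genes described here were the rows of the deposited table whose symbol begins with CCL, CXCL, XCL, CCR or CXCR and a number, the ACKR genes, CX3CL1, CX3CR1 and XCR1. Of 70 name matches, 4 whose description contains the word pseudogene were left out, among them CXCR2P1, CXCL1P1 and CCR12P. This left 66 members among 50868 rows, of which 44 are ligand genes and 21 receptor genes. PF4 and PPBP, platelet chemokines that the name rule does not catch, had 0 counts in both libraries.

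The RNA came from KASUMI-1, an established human line of acute myeloid leukaemia in which RUNX1 is fused to RUNX1T1. Cells of the control group, as it is taken to be here, received a lentivirus that the labels call pccl, and cells of the other group a lentivirus called USP6, after the deubiquitinase of that name. Neither the promoter of the constructs nor the time after infection is given in the labels, and both groups rest on the same line. Each group held 1 library, so no test was possible and every difference below lacks a replicate check.

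The libraries held 12306442 counts (pccl) and 12518795 counts (USP6), of which 49.9% and 45.6% were mitochondrial. USP6 itself had 8 and 70 counts. Of 6 markers chosen for this line (RUNX1T1, KIT, CD34, CD33, MPO and CD38), 5 reached 1 FPKM (the count scaled to gene length and library total) and CD38 had 0 and 8 counts. Of these markers KIT and CD34 were lower in the USP6 library, with CD34 at 12.6 and 4.19 FPKM, and MPO was higher, at 27.4 and 122 FPKM. Intervals below are exact 95% Clopper-Pearson intervals of a ratio of counts. They cover counting error only, not the variation between cultures, and they may be too narrow because reads copied from 1 molecule are not independent. In bulk RNA, fewer cells that express a gene and less of its RNA per cell cannot be told apart.

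Most chemokines are made on demand after inflammatory or interferon signals, whereas a smaller set is made constantly to hold cells in place. The ligands fall into classes by the spacing of their first cysteines (CC, CXC, XC and CX3C). CXCL8 and its relatives act on CXCR1 and CXCR2 and attract neutrophils. CXCL9, CXCL10 and CXCL11 are induced by interferon and act on CXCR3 of activated lymphocytes. CCL3, CCL4 and CCL5 attract monocytes and T cells through receptors such as CCR1 and CCR3. In leukaemia and normal marrow, CXCL12 from stromal cells holds blasts and stem cells through CXCR4. The atypical receptors (ACKR) bind chemokines without G protein signalling and mostly remove them.

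CXCL8 and CXCL10, the ligands with the largest fold differences in either direction among those with counts in both libraries, lie in separate clusters on chromosome 4. Upstream sequences of these genes and of a neighbour of each are shown because CXCL8 and CXCL2 of 1 cluster had fewer counts in the USP6 library and CXCL10 and CXCL11 of the other had more. The sequences are RefSeq's (GRCh38.p14), from 250 bases before to 50 bases after the transcript start, read 5′ to 3′ along the gene. Capitals mark matches on either strand to an NF-kappaB-like motif (GGNNNTTCC), an AP-1-like motif (TGANTCA) or an interferon-response-like motif (GAAA, any 2 bases, then GAAA). The windows are chr4:73740319-73740618 on the plus strand for CXCL8, and on the minus strand chr4:74099146-74099445 for CXCL2, chr4:76023448-76023747 for CXCL10 and chr4:76036021-76036320 for CXCL11.
CXCL8: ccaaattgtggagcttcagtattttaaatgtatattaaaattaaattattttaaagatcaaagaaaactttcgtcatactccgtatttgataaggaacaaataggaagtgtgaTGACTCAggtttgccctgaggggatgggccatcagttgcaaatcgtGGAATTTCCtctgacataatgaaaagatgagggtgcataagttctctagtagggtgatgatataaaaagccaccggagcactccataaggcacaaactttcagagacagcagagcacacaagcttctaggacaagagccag
CXCL2: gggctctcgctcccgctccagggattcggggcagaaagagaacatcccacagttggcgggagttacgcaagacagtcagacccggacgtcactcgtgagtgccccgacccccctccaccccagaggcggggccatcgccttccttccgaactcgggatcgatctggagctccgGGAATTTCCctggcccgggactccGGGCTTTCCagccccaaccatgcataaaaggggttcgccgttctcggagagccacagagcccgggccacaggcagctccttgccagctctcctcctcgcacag
CXCL10: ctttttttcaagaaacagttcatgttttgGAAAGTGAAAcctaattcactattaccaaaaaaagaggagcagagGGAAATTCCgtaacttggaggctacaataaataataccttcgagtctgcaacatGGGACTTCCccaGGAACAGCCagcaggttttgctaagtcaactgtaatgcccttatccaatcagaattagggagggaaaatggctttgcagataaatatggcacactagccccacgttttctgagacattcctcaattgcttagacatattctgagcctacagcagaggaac
CXCL11: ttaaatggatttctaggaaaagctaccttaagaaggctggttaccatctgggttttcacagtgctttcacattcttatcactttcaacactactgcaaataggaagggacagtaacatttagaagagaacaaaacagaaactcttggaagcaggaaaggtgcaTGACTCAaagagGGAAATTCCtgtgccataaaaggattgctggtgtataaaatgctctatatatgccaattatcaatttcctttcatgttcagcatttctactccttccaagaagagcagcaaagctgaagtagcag
The CXCL8 window held GGAATTTCC 91 bases before the start and TGACTCA 137 bases before it. The same GGAATTTCC lay 77 bases before the CXCL2 start, with GGGCTTTCC 53 bases before it. The CXCL10 window held GGAAATTCC, GGGACTTCC and GGAACAGCC, the last a match of the other strand, besides GAAAGTGAAA 221 bases before the start. In CXCL11, GGAAATTCC and TGACTCA lay 75 and 87 bases before the start. The matches do not overlap one another in these windows. Of all 35116 promoter windows in the RefSeq table, 20.1% held the NF-kappaB-like motif, 7.71% the AP-1-like motif and 3.57% the interferon-response-like motif. Of the 60 windows of members, which cover 46 of the 66 genes, these were in 25%, 16.7% and 6.67%. A match to letters is a description of the sequence and not a binding site. Each window shown held the NF-kappaB-like letters, and any part of them in the differences was not tested. The same letters were found in the windows of CXCL1, CXCL5 and CXCL6, which had 0 counts in both libraries. They were also found in that of CXCL3, with 0 counts with pccl and 3 with USP6.

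A count was found in either library for 30 of the 66 members (45.5%), against 68.5% of 19665 protein-coding genes. The pccl library had counts for 20 members, the USP6 library for 29, and both for 19. At least 1 FPKM in 1 of the libraries was reached by 6 members (9.09%, against 42.0% of protein-coding genes), all of them ligands: CCL5, CXCL8, CCL3L3, CCL28, CXCL10 and XCL2. No receptor gene reached that level in either library. At least 10 counts in 1 library were reached by 16 members, 10 ligands and 6 receptors, and 14 members had 1 to 9 counts.

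With 0 counts in both libraries were 36 members. Among them were CXCR4 and its ligand CXCL12, which hold blood progenitors in the marrow. Also at 0 were the receptor genes CCR2, CCR6, CCR8, CCR9, CXCR1, CXCR5, CXCR6, XCR1, ACKR1 and ACKR4. Of the ligands, CXCL1, CXCL5, CXCL6, CXCL9, CXCL13, CXCL14, CX3CL1, CCL1, CCL7, CCL8, CCL11, CCL13, CCL14, CCL15, CCL15-CCL14, CCL16, CCL17, CCL18, CCL21, CCL22, CCL23, CCL24 and CCL26 had none. A count of 0 allows up to 3 counts, which is 0.244 CPM (the count scaled to the library total) with pccl and 0.240 CPM with USP6. These genes were thus not detectable at this depth, and their absence is not shown.

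**Figure D1:**
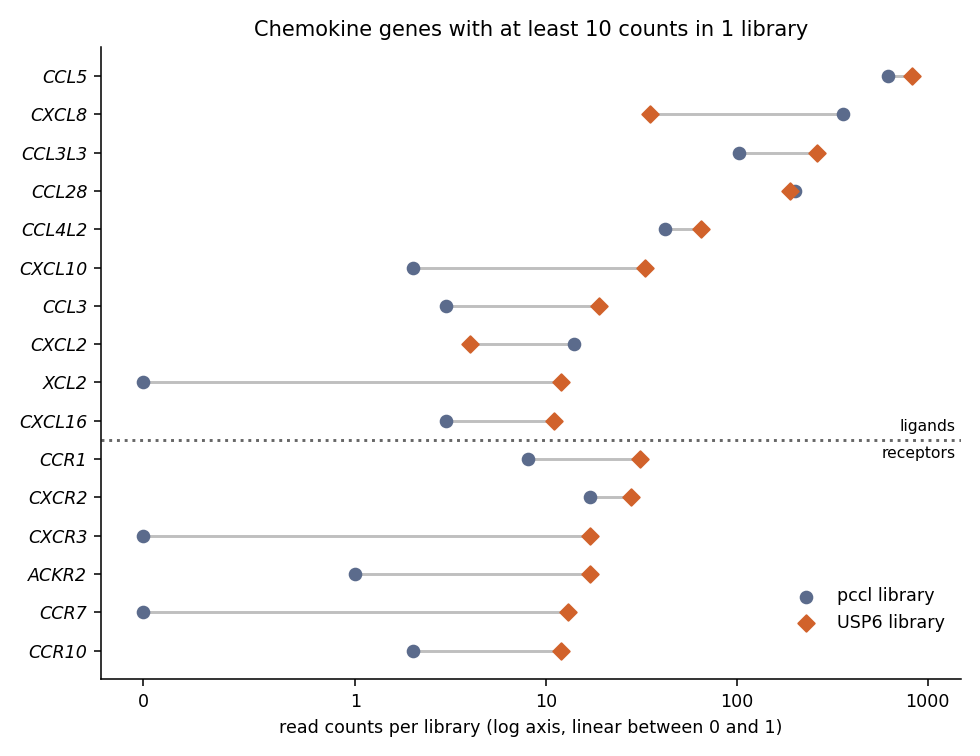
Read counts of the 16 chemokine and receptor genes with at least 10 counts in 1 library, in the pccl library (circles) and the USP6 library (diamonds), 1 library each, on a log axis that is linear between 0 and 1. CXCL8 had 360 and 35 counts, CXCL2 had 14 and 4, CCL28 had 203 and 190, and the other 13 genes had more counts in the USP6 library, 3 of them against 0.

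CXCL8, the ligand that attracts neutrophils, had the largest fold difference in the lower direction of the 16 members with at least 10 counts. CXCL8 (ENSG00000169429, chromosome 4 from 73740506 to 73743716) had 360 counts (10.2 FPKM) and 35 counts (0.975 FPKM), where pccl is given first here and in all pairs of values below. The level was 10.5-fold lower (7.38 to 15.3), and the log2 ratio of FPKM + 1 was -2.50. CXCL2, a neighbour with the same receptor, had 14 counts (0.499 FPKM) and 4 counts (0.140 FPKM), 3.56-fold lower with an interval of 1.12 to 14.9. CXCL3 had 0 and 3 counts, and CXCL1, CXCL5 and CXCL6 of the same cluster had none. All 6 genes of this cluster are held between positions 73740506 and 74099293, and summed over them the counts were 374 and 42, 9.06-fold lower (6.57 to 12.8). CXCL8 alone made up nearly all of that sum, so the sum is not a second observation. The shared receptor CXCR2, found on neutrophils, had 17 counts (0.251 FPKM) and 28 counts (0.406 FPKM), a ratio of 1.62 whose interval of 0.856 to 3.15 included 1. CXCR1, the other CXCL8 receptor, had 0 counts in both.

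Of the CXCR3 ligands, which lie a short distance away on chromosome 4, CXCL10 was higher in the USP6 library. CXCL10 (ENSG00000169245, chromosome 4 from 76021117 to 76023497) had 2 counts (0.138 FPKM) and 33 counts (2.24 FPKM), again with pccl first. The ratio was 16.2 (4.15 to 140). Its log2 ratio of FPKM + 1 was 1.51. CXCL11 had 0 and 6 counts, under the minimum of 10, and CXCL9 had none. Their receptor CXCR3 (ENSG00000186810, chromosome X from 71615916 to 71618517) had 0 and 17 counts (0.390 FPKM in the USP6 library). Against the floor of 3 counts its ratio was 5.57, which leaves out the counting error of the 17 counts. CXCL10 and CXCR3 thus both had 2 or fewer counts in the pccl library and were low but detected in the other.

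CCL5 was the most abundant member in both libraries. This ligand of CCR1 and CCR3 (ENSG00000271503, chromosome 17 from 35871491 to 35880793) had 619 counts (23.6 FPKM) and 828 counts (31.1 FPKM). The ratio was 1.31 (1.18 to 1.46), under the 2-fold limit. The antisense gene AC015849.1, which overlaps it, had 0 and 22 counts. CCL3L3, a copy of the CCL3 gene that GENCODE release 29 names CCL3L1 (ENSG00000276085, chromosome 17 from 36194869 to 36196758), had 103 counts (3.86 FPKM) and 263 counts (9.69 FPKM), 2.51-fold higher (1.99 to 3.18). CCL3 itself had 3 counts (0.0846 FPKM) and 19 counts (0.527 FPKM), a ratio of 6.23 (1.83 to 32.8). The longest exact stretch shared by the 2 transcripts is 83 bases, and 9.88% of the 50-base windows of CCL3 occur in CCL3L3, so reads could be assigned to either gene. Summed over both, the counts were 106 and 282, 2.62-fold higher (2.08 to 3.30), which does not depend on that assignment. Reads left out for matching both genes would be missing from that sum. CCL4L2 had 42 counts (0.652 FPKM) and 65 counts (0.992 FPKM), a ratio of 1.52 (1.02 to 2.30). CCL4 had 3 and 3 counts, and the sum of the pair had a ratio of 1.49 (1.004 to 2.22). CCL4 and CCL4L2 share a stretch of 128 bases.

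The other CC ligands were low, apart from CCL28, a chemokine of mucosal epithelia. CCL28 (ENSG00000151882, chromosome 5 from 43376645 to 43412391) had 203 counts (2.61 FPKM) and 190 counts (2.41 FPKM), a ratio of 0.920 whose interval of 0.751 to 1.13 included 1. CCL20, which attracts CCR6-bearing cells, had 9 and 7 counts, and the monocyte attractant CCL2 had 8 and 3. CCL19, a ligand of CCR7, had 3 and 2 counts, CCL27 had 0 and 5, and CCL25 had 0 and 2. The last 2 overlap IL11RA (45 and 56 counts) and ELAVL1 (1371 and 870 counts) on the other strand, and the strandedness of the counting is not given in the sources used here. Summed over the 22 genes of this set the ratio was 0.921, with an interval of 0.759 to 1.12 that included 1.

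XCL2, a lymphocyte chemokine with a single disulfide bond, was listed at 0 counts in the pccl library. XCL2 (ENSG00000143185, chromosome 1 from 168540765 to 168543997) had 12 counts in the USP6 library, which its short length turns into 1.70 FPKM. Set against the floor, its ratio was 3.93, again without the counting error of the USP6 count. XCL1 beside XCL2 had 0 and 4 counts. Of the 50-base windows of the XCL2 transcript, 46.3% occur in XCL1, so the split between the genes is uncertain. Their sum, 0 and 16, does not depend on that split, but reads left out for matching both genes would be missing from it. The receptor XCR1 had none. CXCL16, which exists as a membrane-bound form and binds CXCR6, had 3 counts (0.0499 FPKM) and 11 counts (0.180 FPKM), a ratio of 3.60 with an interval of 0.952 to 20.1, and overlaps MED11, which had 30 and 78 counts. CXCL17 had 2 and 6 counts.

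**Figure D2:**
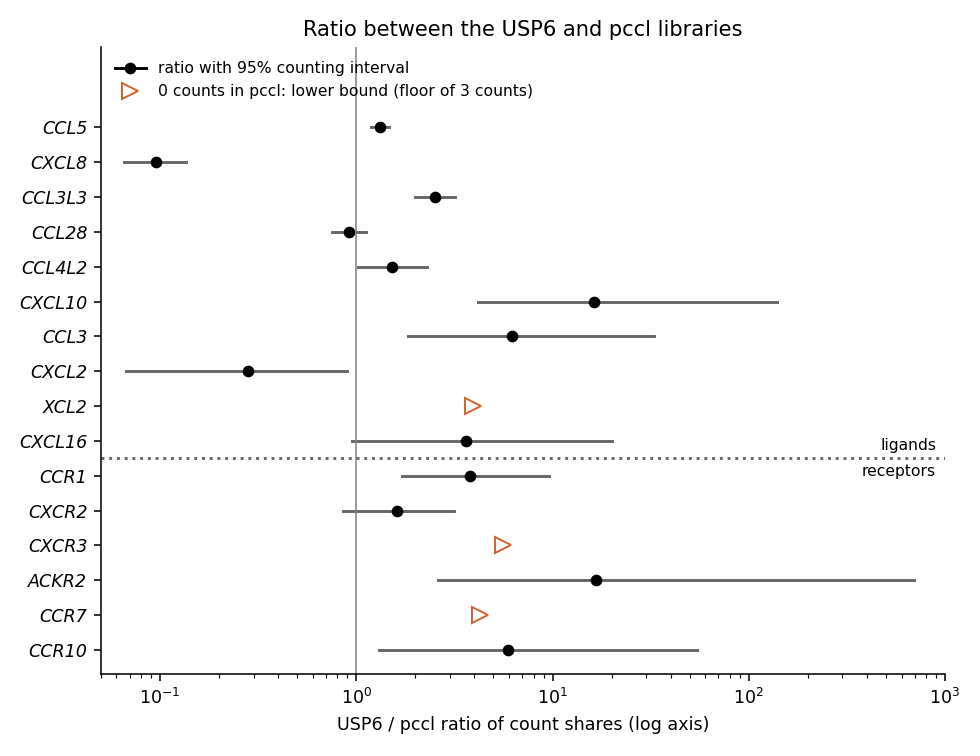
Ratio of each gene's share of counts in the USP6 library to that in the pccl library (log axis), for the 16 genes with at least 10 counts in 1 library. Points with lines are ratios with exact 95% counting intervals. Open triangles are ratios to the floor of 3 counts for XCL2, CXCR3 and CCR7, which had 0 counts in the pccl library. The legend calls the triangles lower bounds, but they leave out the counting error of the USP6 count. The intervals of CXCL8 and CXCL2 lie below 1, those of CCL28, CXCL16 and CXCR2 include it. These ratios are not centred on GC content, which turned CCL28 alone of the 16 to the other side of 1.

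Receptor genes were all under 1 FPKM, and 9 of the 10 with a count had more in the USP6 library, against 51.9% of 9807 genes with a count under that level. CCR1, a receptor of monocytes for CCL3 and CCL5, had 8 counts (0.238 FPKM) and 31 counts (0.907 FPKM), a ratio of 3.81 (1.71 to 9.59). CCR3, the eosinophil receptor whose locus overlaps CCR1 on the other strand, had 0 and 6 counts. CCR7, which guides lymphocytes and dendritic cells to lymph nodes, had 0 and 13 counts (0.217 FPKM in the USP6 library). Its ratio to the floor was 4.26, without the counting error of the 13 counts. CCR10, a receptor for CCL27 and CCL28, had 2 counts (0.0345 FPKM) and 12 counts (0.204 FPKM), a ratio of 5.90 (1.31 to 54.3), and overlaps CNTNAP1, which had 10 and 14 counts. ACKR2, which takes up and degrades inflammatory CC chemokines, had 1 count (0.00948 FPKM) and 17 counts (0.158 FPKM), a ratio of 16.7 (2.62 to 698). ACKR3, which removes CXCL12, had 1 and 2 counts, CX3CR1 had 0 and 1, and CCR4 was the exception with 4 and 0.

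Summed over the 21 receptor genes, there were 33 and 127 counts, a ratio of 3.78 (2.56 to 5.73). Leaving out each receptor with at least 10 counts in turn gave ratios from 3.28 without CXCR3 to 6.08 without CXCR2. CXCR2 held 17 of the 33 counts with pccl. These sums show the weight of single genes in the same 1 library per group and are not a replicate check. The ligands together had 1374 and 1501 counts, a ratio of 1.07 (0.997 to 1.16). That sum joins opposite differences, since it was 1.42 without CXCL8 and 0.876 without CCL5, and it was 0.991 with depth taken from nuclear genes. The makeup of the ligand counts differed more than their total. Of all counts on members, the CCL3, CCL4 and CCL5 genes held 54.7% with pccl and 72.4% with USP6. The CXCL8 cluster held 26.6% and 2.58%, and the CXCR3 ligands 0.142% and 2.40%.

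**Figure D3:**
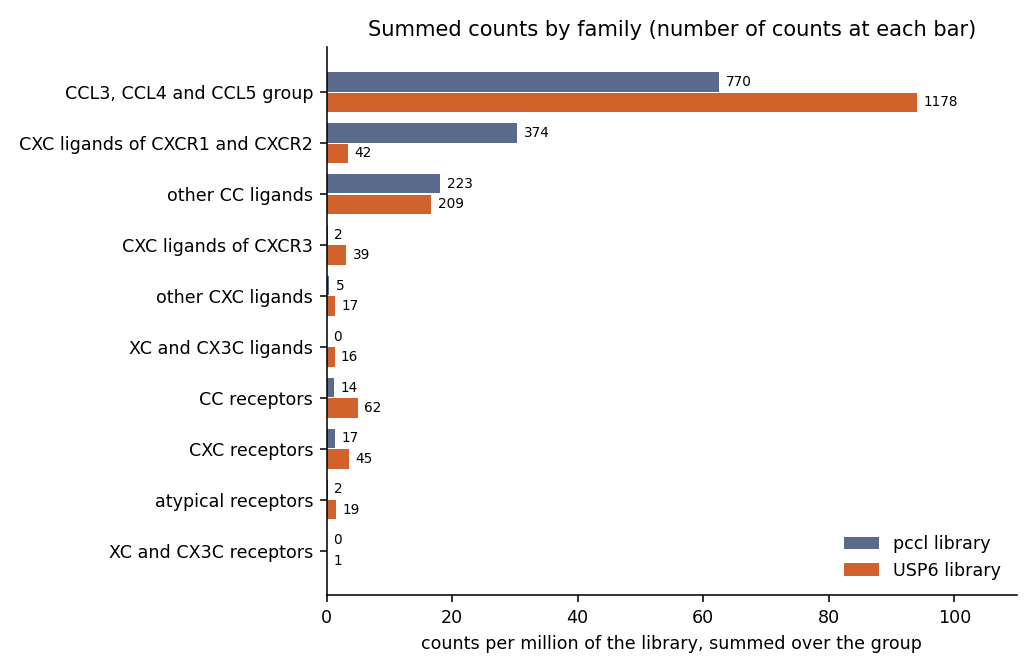
Counts summed over each family, in CPM of the library, for the pccl library (upper bars) and the USP6 library (lower bars), with the number of counts printed at each bar. The CCL3, CCL4 and CCL5 genes had 770 and 1178 counts, the ligands of CXCR1 and CXCR2 374 and 42, and the receptor families 62 or fewer in either library.

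Of 31 ligand and receptor pairs taken from textbook knowledge, both partners had a count in 8 with pccl and in 16 with USP6. Both had at least 10 counts in 2 pairs in the pccl library, CXCL8 and CXCL2 each with CXCR2. In the USP6 library this held for 7 pairs, which were CXCL8 with CXCR2, CXCL10 with CXCR3, CCL3, CCL3L3 and CCL5 with CCR1, CCL28 with CCR10 and CCL5 with ACKR2. The pairs share genes and are not independent. Several found only with USP6 rest on genes at 0 counts with pccl and few with USP6. Such genes were CCR3 (6 counts), CXCL11 (6), CCL27 (5) and CXCL3 (3). The pairs were set after the counts were available, and no share over all genes stands beside these numbers, so they are a description only. CXCL16, CCL20, CCL25, XCL1 and XCL2 had counts while the receptor listed for each had none. CCL2 had counts beside its scavenger ACKR2 but not beside CCR2. Counts of RNA do not show whether a receptor was on the surface.

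Of the 20 detected ligands, 13 lie in clusters of members less than 1 Mb apart and 7 outside them (CCL20, CCL25, CCL28, CXCL16, CXCL17, XCL1 and XCL2). On chromosome 17 the 11 genes between 35871491 and 36212878 held 770 and 1178 counts from 5 detected genes. The 6 genes between 34255218 and 34363231 on the same chromosome had 8 and 3 counts, all from CCL2. The 3 genes on chromosome 16 between 57358772 and 57416062 had none. On chromosome 9, CCL19 and CCL27 gave the 3 and 7 counts of 3 genes between 34661880 and 34710124.

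Set against all genes, the members with enough signal were few. Of the 6 at 1 FPKM or more, 3 had a log2 ratio of FPKM + 1, USP6 over pccl, of 1 or more, namely CCL3L3, CXCL10 and XCL2, against 13.7% of 10153 such genes. CXCL8 had a ratio of -1 or less, against 11.4% of those genes. Of these, CXCL10 and XCL2 reached 1 FPKM only in the USP6 library and CXCL8 only in the pccl library, so their differences are partly set by that filter. As a description, the median over the 6 was 0.76, against 0.06 over all genes at that level, it was 0.38 over the 3 that reached 5 FPKM, and over the 30 members with a count it was 0.18, against 0.02 over 19960 genes. That scale shrinks the differences of genes near or under 1 FPKM. Counted by a plain ratio of 2-fold or more with at least 10 counts in the higher library, 10 of 16 members were higher and 2 lower, against 25.1% and 20.6% of 14046 genes. Besides the 4 genes named, these were CCL3, CXCL16, CCR1, CCR7, CCR10, CXCR3 and ACKR2, all higher, and CXCL2, lower. Of the 10 higher, 9 reached 10 counts only in the USP6 library, and CCL3L3 in both. Of the 6 members that reached 10 counts in both libraries, CCL3L3 was higher, CXCL8 lower and the other 4 between the limits.

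**Figure D4:**
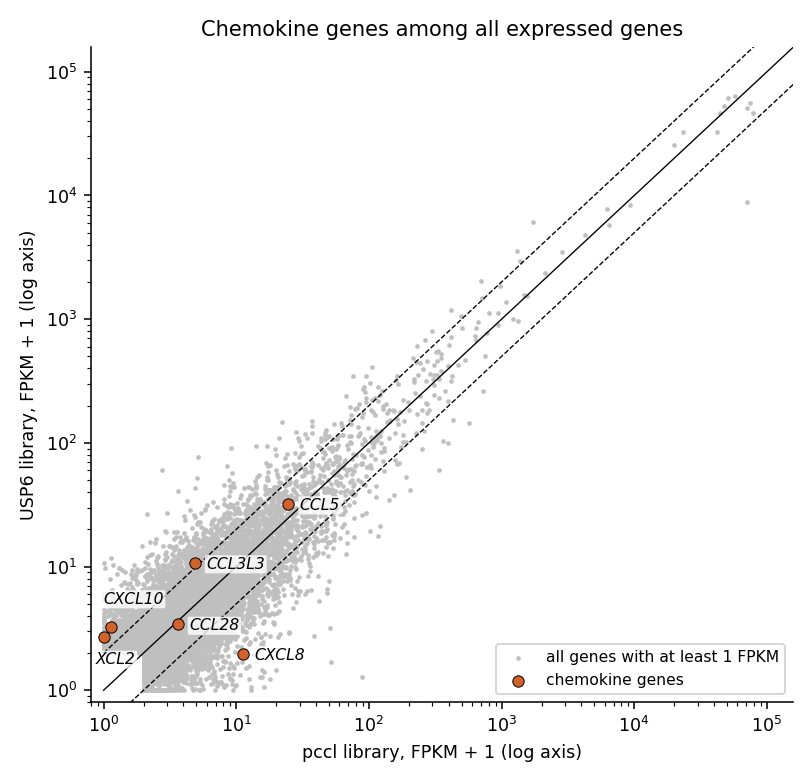
FPKM + 1 in the USP6 library against the pccl library (log axes) for the 10153 genes with at least 1 FPKM in 1 library (grey) and the 6 chemokine genes among them (filled circles). The solid line marks equal values and the dashed lines 2-fold differences, and CXCL8 lies below the lower dashed line while CCL3L3, CXCL10 and XCL2 lie above the upper one.

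Of the 30 members with a count, 10 had counts in the USP6 library alone, against 10.5% of 19960 genes, and CCR4 had them in the pccl library alone, against 9.22%. Among the 24 members with a count that stayed under 1 FPKM in both, 18 had more CPM in the USP6 library, against the same 51.9%, and 6 had more in the pccl library, against 48.1%. At least 10 counts against 0 were found for XCL2, CXCR3 and CCR7 in the USP6 library, against 1.42% of 14046 genes, and for no member in the pccl library, against 0.648%. Most of these members have so few counts that their own intervals are wide, and they cannot be read as separate results.

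Ratios in these libraries followed the GC content of transcripts, so each was also centred on that trend. Median GC content was 48.4% in the members with a count and 48.4% in all genes with a count. On the plain ratio, the centred log2 values were -3.12 for CXCL8, 4.48 for CXCL10, 1.23 for CCL3L3, 1.61 for CXCR3 and 1.42 for CCR10, with CXCR3 set to the floor in the pccl library. CCL5 went from 0.40 to 0.10 and CCL28 from -0.12 to 0.32. On the scale of FPKM + 1, where these genes lie near 0, CXCR3, CCR10 and CXCL16 turned from 0.47, 0.22 and 0.17 to -0.12, -0.60 and -0.14.

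Markers of other leukocytes also differed, and their part in the results was not tested. The 4 B cell markers summed to 3.13 and 12.6 FPKM, with CD79A at 2.60 and 10.5, CD79B at 0.448 and 2.07, and MS4A1 at 0 and 1 counts. The 6 T cell markers all had counts in both libraries and summed to 38.7 and 46.9 FPKM. Of these, CD3D was at 27.8 and 22.6 FPKM, CD4 at 9.57 and 16.7 and CD3E at 0.890 and 4.34. CD2 had 4 and 81 counts and CD8A 18 and 4. The 4 NK cell markers summed to 0.274 and 0.942 FPKM, with KLRD1 and NCR1 at 0 in both. The 6 monocyte and macrophage markers summed to 0.449 and 1.15 FPKM, with C1QA at 0. Of 5 neutrophil markers, FCGR3B, CAMP and MMP8 were at 0, and the sums were 1.33 and 1.38 FPKM. The platelet list summed to 0.257 and 1.19 FPKM with PF4 and PPBP at 0, and the stromal, endothelial and epithelial list to 17.4 and 8.97 FPKM, nearly all from EPCAM, with COL1A2, DCN, KRT18 and VWF at 0.

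Genes that carry the signal from chemokine receptors were mostly expressed, and 24 of the 35 expressed lay between the limits. Of 40 such genes, 35 reached 1 FPKM, and 6 were higher and 5 lower by at least 1 on the scale of FPKM + 1 (17.1% and 14.3%, against the 13.7% and 11.4% of all genes), with a median of 0.05. The phospholipase gene PLCB2, which the G protein subunits released by these receptors switch on, had 1.79 and 13.6 FPKM, 7.59-fold higher (6.73 to 8.58). PREX1, an activator of RAC proteins in neutrophils, had 2.26 and 8.95 FPKM. RGS2, which turns G proteins off, had 1.72 and 5.08 FPKM. The actin regulators WAS and VAV1 and the integrin activator FERMT3 were 2.37-fold, 2.11-fold and 2.26-fold higher. After centring on GC content these 3 were under the limit, with log2 ratios of 0.67, 0.66 and 0.51.

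The lower genes of that list included the catalytic PI3-kinase subunit genes PIK3CG and PIK3CD, while the regulatory subunit gene PIK3R5 had 27 and 24 counts. PIK3CG, the isoform that chemokine receptors use, had 2.69 and 0.526 FPKM, 5.10-fold lower (3.85 to 6.87). PIK3CD had 352 and 6 counts, 59.7-fold lower (27.1 to 164). The arrestin gene ARRB1 and the receptor kinase gene GRK3, whose proteins switch receptors off, were 6.36-fold (5.21 to 7.83) and 6.50-fold lower (5.04 to 8.48), while their relatives ARRB2 and GRK2 had 5.67 and 9.79 FPKM and 10.3 and 10.7 FPKM. CDC42, a GTPase of cell polarity, had 31.8 and 4.98 FPKM. The inhibitory G protein gene GNAI2, the main one in leukocytes, had 31.5 and 42.2 FPKM.

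Of 13 proteases known to trim chemokines, 9 were expressed, 2 of these higher and 2 lower (22.2% each, against 13.7% and 11.4% of all genes), with a median of -0.07. The number higher was 0 after centring on GC content or with a pseudocount of 5, and 1 under each of the 3 other scalings. The neutrophil proteases PRTN3 and CTSG had 115 and 16.6 FPKM and 87.8 and 25.2 FPKM. The aminopeptidase ANPEP had 0.451 and 2.39 FPKM and the membrane protease MMP14 5.78 and 12.7. DPP4, which inactivates CXCL12, was at 0 in both, as were MMP8 and MMP9.

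Of 27 relatives that the name rule leaves out, 12 were expressed, with 2 higher and 2 lower (16.7% each, near the 13.7% and 11.4% of all genes) and a median of -0.01. MIF, a cytokine that also binds CXCR2 and CXCR4, had 195 and 214 FPKM, more than any member. Its receptor CD74 had 3.64 and 1.10 FPKM, 3.31-fold lower (2.61 to 4.25). The leukotriene receptor LTB4R had 5.54 and 16.3 FPKM, 2.94-fold higher (2.65 to 3.26), and the complement receptor C3AR1 3.52 and 1.17 FPKM. CMTM2 had 5 and 41 counts.

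Of 24 genes of marrow retention and of CXCR4 control, 22 were expressed, 7 lower and 0 higher by at least 1 (31.8% lower, against 11.4% of all genes), with a median of -0.54. The number lower ranged from 1 with a pseudocount of 5 to 12 with the plain ratio, and was 4 after centring on GC content. Like the other lists, this one was chosen with earlier results of these data known, so its share is a description only. KIT is also among the line markers given above. The integrin subunit ITGA4, which holds blasts to stroma, had 3.61 and 1.03 FPKM. ITCH, the ubiquitin ligase that sends CXCR4 to degradation, had 4.27 and 0.648 FPKM, and the deubiquitinase USP14 7.65 and 2.59. The stem cell factor receptor KIT had 99.3 and 39.99 FPKM, HIF1A 2.01 and 0.262, KLF2 4.75 and 0.835 and VPS4B 5.17 and 1.81. CXCR4 itself had no count in either library.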

How the data were processed

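RNA-seq libraries of KASUMI-1 numbered 2, with 1 per group, assigned by the treatment label and matched to the columns of the deposited table by name. Tools named in the submitters' processing notes are edgeR, StringTie 1.3.3b and HISAT2 2.0.4, with no role stated. Genome build, annotation and strandedness are not given in the sources used here. Raw counts per gene, all whole, were deposited. The deposited FPKM follow from these counts, a gene length and the column total, with the implied length alike in both columns within 0.0977% over 16030 genes. Coordinates are as the table lists them, and 65 of 66 member loci were identical in GENCODE release 29 (GRCh38). GC content is that of the longest transcript in that release.

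Rows of 1 symbol were summed (50464 symbols). Expressed means at least 1 FPKM in the higher library, and higher or lower means a log2 ratio of FPKM + 1 at or past 1 or -1. With 0 residual degrees of freedom no test was made. Folds are ratios of count shares without a pseudocount, with 95% conditional binomial intervals. A count of 0 was set to a floor of 3 counts per library. Every member with at least 10 counts in 1 library was named with its values, those with fewer by their counts, and list genes at or past the limit by name. ARRB2, GRK2, GNAI2, PIK3R5, MIF and the list genes at 0 fall outside that rule and were named after their values were seen. The members and all gene lists were chosen with earlier results of these data known. Alternatives varied the pseudocount, filter, scaling, GC centring (lowess, span 0.3), limit and summing of rows. The pairs, families and motifs were set after the counts were available. The steps were tested on simulated data. R 4.3.3, edgeR 4.0.16 (trimmed mean), Python 3.11.15, SciPy 1.17.1, pandas 2.3.3, statsmodels 0.14.6 and matplotlib 3.10.9 were used. Some genes matched by the name rule or on the marker lists are not reported here.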

Additional observations from a re-analysis of the deposited data

How the results depend on the processing

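No paired analysis was possible because each group held 1 library. The counts of members at or past the limit, 3 higher and 1 lower, became 0 higher with a pseudocount of 5, 1 higher with a filter of 5 FPKM, and 10 higher and 2 lower with the plain ratio and 10 counts, also after centring that ratio on GC content. The median of 0.76 became 0.38 with a pseudocount of 5 or a filter of 5 FPKM, 0.18 with no filter and 0.58 with depth from nuclear genes. Asking for 10 counts left 16 of the 30 detected members. In the receptor signalling list, 6 higher and 5 lower became 2 and 2 with a pseudocount of 5, 2 lower with a filter of 5 FPKM, 3 higher after GC centring, 11 higher with a limit of 1.5-fold and 9 lower with the plain ratio. The 7 lower genes of the retention list became 1 with a pseudocount of 5, 3 with a filter of 5 FPKM, 4 after GC centring and 12 with the plain ratio. Of 128 values for 16 named members under the other settings, 124 kept their sign. A change of pseudocount could not alter a sign, and taking rows singly left these values as they were. CCL28 (0.26), CCR10 (-0.60), CXCL16 (-0.14) and CXCR3 (-0.12) changed sign, all after GC centring. On the plain ratio only CCL28 did so, among the 4 scalings added after the data were seen. The trimmed mean lowered all log2 ratios by a shift of -0.10 and nuclear depth by -0.12. The summed receptor ratio was then 3.53 and 3.49, and the summed ligand ratio 1.001 and 0.991. Depth limits the 14 members with fewer than 10 counts, and 1 library per group leaves the variation between cultures unmeasured.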
